A study of Mus musculus with 6 samples.

Results

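The genes described here are 10 regulators of skeletal muscle formation and of myoblast fusion: Myod1, Myog, Myf5, Pax3, Pax7, Mymk, Smyd1, Cdh15, Mef2c and Six4. They were chosen by name from the deposited table of 22394 genes, and all 10 had a row in it. The RNA came from whole mouse kidneys dissected at E13.5. The 3 control libraries, Ptch1 (flox/+), carried 1 floxed and 1 wild-type allele of the Hedgehog receptor gene Ptch1. The 3 mutant libraries, Foxd1Cre;Ptch1 (flox/-), carried 1 floxed and 1 null allele together with Foxd1Cre, which expresses Cre recombinase where Foxd1, a marker gene of kidney stroma precursors, is active. No Cre is named in the control genotype, and the null allele was in every cell of the mutants, so these differences and loss of Ptch1 from the Foxd1 lineage cannot be told apart.

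Skeletal muscle is built in steps. Pax3 and Pax7 mark muscle progenitors, Six4 acts upstream of the myogenic factors, and the basic helix-loop-helix factors Myf5 and Myod1 commit cells to the myoblast state. Myog then drives differentiation together with Mef2c, and the membrane protein made from Mymk (myomaker) lets myoblasts fuse into multinucleate fibres. Skeletal muscle is not a cell type of the kidney itself. In a whole organ, fewer cells of a type and less RNA per cell cannot be told apart.

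Some facts of the libraries bear on what follows. Depth was 13261588 to 47847925 reads, with the shallowest (mutant 2) and the deepest (mutant 3) both among the mutants. By the Y-linked gene Ddx3y, control 2 and all 3 mutants came from male material, at 13.9 to 17.8 FPKM (reads per gene length and library depth), and controls 1 and 3 were at 0.0598 and 0.0177 FPKM. Sex and genotype were thus partly confounded. Mutant 3 stood apart in also having Xist, the RNA of the inactive X, at 6.19 FPKM, against 72.9 and 53.3 FPKM in controls 1 and 3 and at most 0.206 FPKM in the other libraries. The kidney label was borne out by nephron progenitor markers, whose 8 listed genes summed to 342 to 436 FPKM in controls and 330 to 387 FPKM in mutants. Ptch1 was higher in mutants, at 29.7 against 7.92 FPKM. These whole-gene values cannot tell deleted from intact Ptch1 transcripts.

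RNA of all 10 genes was found in control kidneys, and 3 of them fell in the mutants. Of the 10 genes, 7 passed the filter of at least 10 normalized counts in 3 or more libraries and were tested in limma over all 16933 genes that passed. Mymk, Smyd1 and Myog fell in the mutants, by 14.5-fold, 9.66-fold and 6.76-fold in mean FPKM. Of all genes tested, 0.307% were called, 0.0886% lower and 0.219% higher. Myod1 and Cdh15 had lower values in every mutant than in any control but did not pass over all genes, and Mef2c and Six4 had overlapping groups. Groups thus did not overlap for 5 of the 7 tested genes, all lower in mutants, where 9.09% of all genes tested were apart in that direction and 7.57% in the other. Myf5, Pax3 and Pax7 had too few reads to be tested. Myod1, Mymk and Smyd1 reached the filter only through the controls, with 1, 0 and 0 mutant libraries at the minimum, so these counts describe the genes and carry no weight for the group as a whole.

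**Figure D1:**
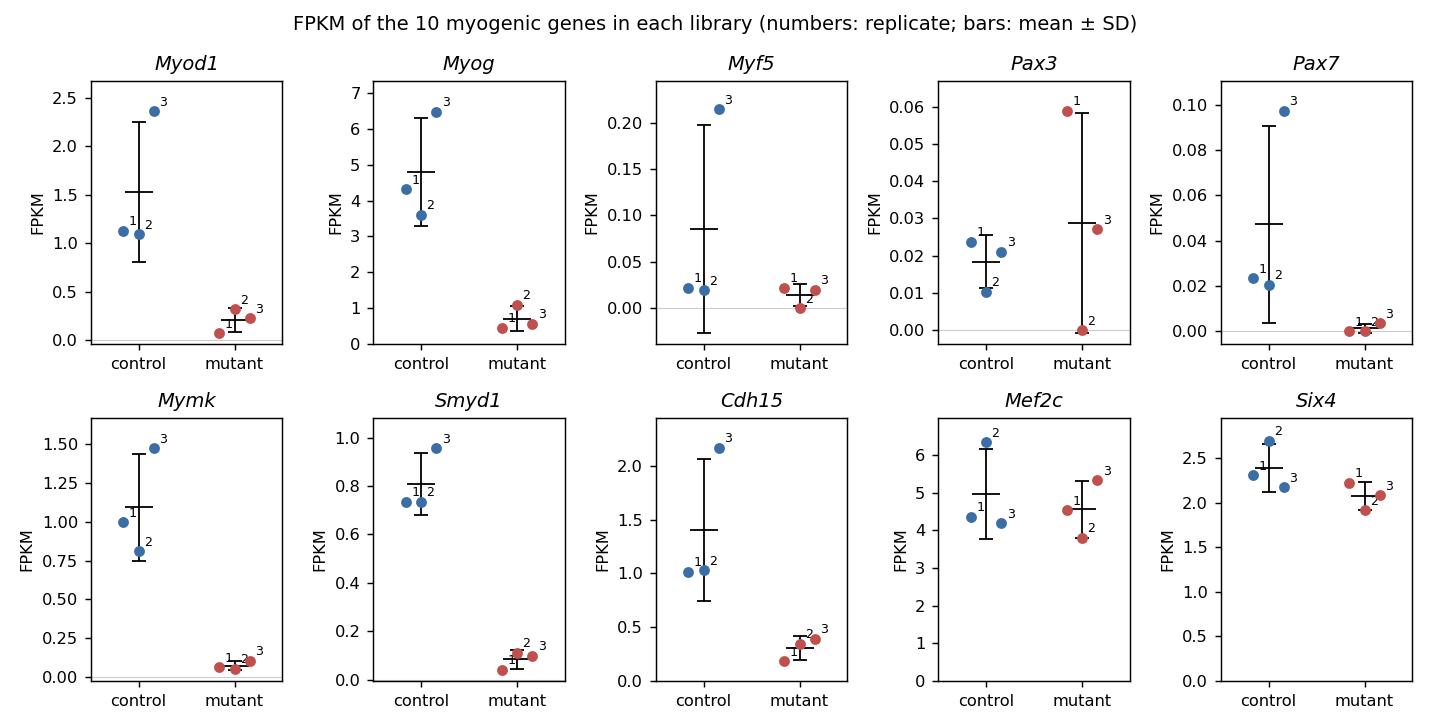
FPKM of each of the 10 genes (vertical axes, each starting at or just below 0) in the 3 control and 3 mutant libraries, with the replicate number beside each point and the mean ± SD as bars. Mutant points lie below all control points for Myod1, Myog, Pax7, Mymk, Smyd1 and Cdh15, while the groups overlap for Myf5, Pax3, Mef2c and Six4.

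Myod1 and Myog, the myogenic factors of commitment and of differentiation, had more reads than Myf5. Myod1 (ENSMUSG00000009471.4, chromosome 7, 46376474 to 46379099, GRCm38) was at 1.13, 1.09 and 2.36 FPKM in controls 1 to 3 and at 0.0735, 0.321 and 0.225 FPKM in mutants 1 to 3. Control 3 stood above the other controls, at 2.12 times their mean, and no mutant reached the lowest control. In reads these were 46, 51 and 108 against 3, 8 and 20. The group means were 1.53 ± 0.721 and 0.207 ± 0.125 FPKM (SD, n = 3 each), a 7.41-fold difference. On the log2(normalized count + 1) scale Myod1 differed by -2.85 (SE 0.55, 95% interval -4.10 to -1.60), at a limma adjusted p of 0.101. The count model in the authors' deposited table put the same difference at -2.96 (adjusted p = 0.00149).

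Myog (ENSMUSG00000026459.5, chromosome 1, 134289989 to 134292548) was the most abundant of the lowered genes per length. It stood at 4.32, 3.60 and 6.48 FPKM in the controls and at 0.457, 1.10 and 0.573 FPKM in the mutants. Control 3 was again the highest library and mutant 2 the highest mutant, still below every control. The reads were 141, 135 and 238 in controls and 15, 22 and 41 in mutants. Myog fell from 4.80 ± 1.497 to 0.710 ± 0.343 FPKM, a log2 difference of -2.76 (SE 0.38) at a limma adjusted p of 0.0317. Its rank by mean FPKM moved from 9238 of 22394 genes in controls to 14507 in mutants.

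The stretch of DNA before Myog is shown because it is a textbook muscle promoter, in which an E-box (bound by myogenic factors), a MEF3 site (bound by Six4) and a MEF2 site lie close together, and factors of all these kinds are among the 10 genes. It is set beside the stretch before the RefSeq start of Smyd1, which also fell and whose gene as GENCODE draws it extends further upstream, and before the most upstream start of Mef2c, which did not pass. The sequences are RefSeq's (GRCm38.p6), hold no annotated exon of the gene, and read 5′ to 3′ along the gene's strand. Capitals mark the E-box CANNTG, the MEF3 motif TCAGGTT on either strand, and a MEF2 core of TA, 4 bases that are each A or T, and TA.
Myog, chr1:134289754-134289988, plus strand: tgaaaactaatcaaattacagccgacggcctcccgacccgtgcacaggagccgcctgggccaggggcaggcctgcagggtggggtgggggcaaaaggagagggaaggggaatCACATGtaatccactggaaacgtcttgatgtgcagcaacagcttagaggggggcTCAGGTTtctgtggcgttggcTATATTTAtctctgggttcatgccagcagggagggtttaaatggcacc
Smyd1, chr6:71262282-71262531, minus strand: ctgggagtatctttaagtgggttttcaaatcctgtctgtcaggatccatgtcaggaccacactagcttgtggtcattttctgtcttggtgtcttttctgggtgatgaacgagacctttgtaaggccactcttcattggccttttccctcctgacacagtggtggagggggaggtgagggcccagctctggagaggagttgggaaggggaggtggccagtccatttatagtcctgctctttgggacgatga
Mef2c, chr13:83503784-83504033, plus strand: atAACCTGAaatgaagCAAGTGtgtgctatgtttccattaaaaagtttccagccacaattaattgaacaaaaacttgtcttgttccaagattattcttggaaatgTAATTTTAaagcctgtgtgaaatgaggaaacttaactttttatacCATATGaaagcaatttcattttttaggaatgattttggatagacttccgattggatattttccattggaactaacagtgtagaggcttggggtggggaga
The Myog stretch held 1 E-box, 1 MEF3 motif and 1 MEF2 core, and a second E-box lay 12 bases before the RefSeq start, inside the exon as GENCODE draws it. The Smyd1 stretch held no match to any of them. The Mef2c stretch held 2 E-boxes, 1 MEF3 motif and 1 MEF2 core. Over the 250 bases before each of 32851 RefSeq starts, searched on both strands, CANNTG was present in 66.2%, TCAGGTT in 3.49% and the MEF2 core in 8.56%. The stricter 10-letter MEF2 motif had no match in the Myog window. The core was searched after that window had been read. Of the 10 genes 7 had RefSeq promoter entries. Of the other Mef2c starts, the window from 83523406 held none of these motifs and that from 83573357 held 1 E-box. Cdh15 had 3 E-boxes and neither of the other motifs. Six4 had 1 MEF3 motif in the window from 73113246 and no match in that from 73113426. Pax7 and Myf5 had no match. In the stretches shown, letters of these motifs stood before a gene that fell and before 1 start of a gene with overlapping groups. They were missing before another gene that fell. Such matches describe the sequence alone.

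Myf5, the third factor measured in this family, was nearly absent. Myf5 (ENSMUSG00000000435.1, chromosome 10, 107482908 to 107486134) was covered by 1, 1 and 11 reads in the control libraries and by 1, 0 and 2 in the mutant libraries, and was not tested. Almost all of the control signal came from control 3. Over the groups this made 13 of 72023499 reads against 3 of 82124664, a rate ratio of 4.94 in favour of controls with an exact interval of 1.36 to 27.0 that covers counting error only. Its neighbour Myf6, the remaining family member, has no row among the genes analysed here.

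The progenitor genes Pax7 and Pax3 were close to the limit of detection, and no direction could be read for Pax3. Pax7, which marks fetal and adult muscle progenitors (ENSMUSG00000028736.13, chromosome 4, 139737062 to 139833528), had 3, 3 and 14 reads in controls and 0, 0 and 1 read in mutants. The groups did not overlap, and control 3 held most of the reads. The rate ratio of 20 to 1 reads was 22.8 with an exact counting interval of 3.65 to 945. The authors' deposited table gave Pax7 an unadjusted p of 0.0603 and no adjusted p. Pax3, which acts in the embryonic dermomyotome and the neural crest (ENSMUSG00000004872.15, chromosome 1, 78101267 to 78197134), had 2, 1 and 2 reads in controls and 5, 0 and 5 in mutants, so its groups overlapped. Its 5 and 10 reads gave a control to mutant ratio of 0.57 with an interval of 0.153 to 1.83. A change in Pax3 was not detectable at this depth.

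The gene of the fusion step showed the largest fold among the tested genes of the group. Mymk (ENSMUSG00000009214.9, chromosome 2, 27061636 to 27072179) was at 0.995, 0.808 and 1.47 FPKM in controls and at 0.0659, 0.0541 and 0.106 FPKM in mutants. The highest mutant lay far below the lowest control. Mutant reads were 2, 1 and 7, against 30, 28 and 50 in controls. Mymk fell from 1.09 ± 0.343 to 0.0753 ± 0.0272 FPKM, a log2 difference of -3.40 (SE 0.45) at a limma adjusted p of 0.0264. Mymx (myomixer), which encodes the micropeptide that works with myomaker, was at 0.798, 1.54 and 1.72 FPKM in controls and at 1.13, 0.93 and 0.806 FPKM in mutants. The Mymx groups overlapped, and limma put their log2 difference at -0.42 (SE 0.40, adjusted p = 0.698). Whether the changes of these partner genes differ was not tested.

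Cdh15 encodes M-cadherin, an adhesion molecule of myoblasts and satellite cells. Cdh15 (ENSMUSG00000031962.6, chromosome 8, 122847966 to 122867397) was at 1.01, 1.03 and 2.17 FPKM in controls and at 0.182, 0.345 and 0.392 FPKM in mutants. Controls 1 and 2 were nearly equal, control 3 was 2.12 times their mean, and no mutant reached them. The means were 1.40 ± 0.66 and 0.306 ± 0.11 FPKM, and mutants kept 21.8% of the control level. Limma put the log2 difference of Cdh15 at -2.12 (SE 0.42, adjusted p = 0.106). The authors' deposited table called Cdh15 (adjusted p = 0.000885).

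Smyd1 encodes a histone methyltransferase and myosin chaperone partner of striated muscle. Smyd1 (ENSMUSG00000055027.17, chromosome 6, 71213940 to 71322233) was the steadiest of the lowered genes among controls, at 0.736, 0.736 and 0.957 FPKM. The mutants were at 0.0407, 0.111 and 0.0995 FPKM, from 3, 5 and 16 reads. Smyd1 fell from 0.809 ± 0.127 to 0.0838 ± 0.0378 FPKM, a log2 difference of -3.18 (SE 0.42) at a limma adjusted p of 0.0276.

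Mef2c and Six4 did not share this pattern. Mef2c, a MADS-box factor that works in heart, vessels and neurons as well as in muscle (ENSMUSG00000005583.16, chromosome 13, 83504034 to 83667080), was at 4.36, 6.34 and 4.18 FPKM in controls and at 4.53, 3.799 and 5.33 FPKM in mutants. Control 2 was the highest library and mutant 2 the lowest. The log2 fold change of Mef2c was -0.11 with a 95% interval of -0.57 to 0.34 (limma adjusted p = 0.841). Beside it, the 10 listed endothelial markers all had positive fold changes, with a median of 0.98, and summed to 149 to 157 FPKM in controls and 277 to 327 FPKM in mutants. Their part in the Mef2c level was not tested.

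Six4, a homeobox factor of muscle and of the early kidney (ENSMUSG00000034460.9, chromosome 12, 73099609 to 73113456), was at 2.31, 2.70 and 2.17 FPKM in controls and at 2.23, 1.92 and 2.08 FPKM in mutants. Mutant 1 lay above control 3. The log2 fold change was -0.20 with a 95% interval of -0.56 to 0.15 (limma adjusted p = 0.643). The intervals of Mef2c and Six4 do not reach that of Myog, -3.63 to -1.89.

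**Figure D2:**
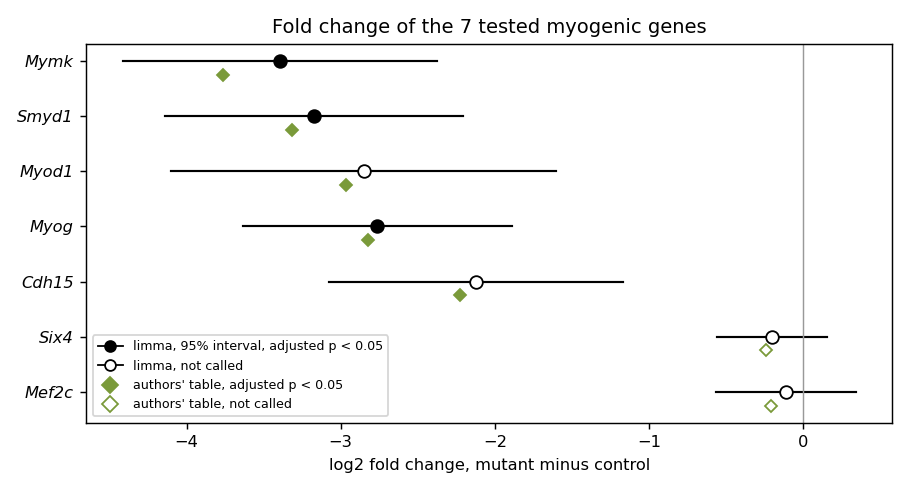
Log2 fold change (mutant minus control, horizontal axis) of the 7 tested genes from limma with 95% intervals (circles, filled where the adjusted p passed) and from the authors' deposited table (diamonds, filled where its adjusted p passed). Intervals of Mymk, Smyd1, Myod1, Myog and Cdh15 lie below 0, and those of Six4 (-0.56 to 0.15) and Mef2c (-0.57 to 0.34) span it.

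In controls the order of levels per length was Mef2c and Myog, then Six4, Myod1, Cdh15, Mymk and Smyd1, then Myf5, Pax7 and Pax3. The ranges of the libraries were apart at only 2 steps of this order, between Myog and Six4 and between Smyd1 and Myf5. All other neighbours overlapped. In mutants Mef2c, Six4, Myog and Cdh15 stood apart from one another in that order, at mean levels of 4.55, 2.08, 0.71 and 0.306 FPKM. Myog thus ranked beside Mef2c in controls and below Six4 in mutants.

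Control 3 stood out among the controls for the lowered genes. It was the highest of the 6 libraries for 7 of the 10 genes, and for 5 of the 7 that were tested, against 10.4% of all genes tested, and it was the lowest control for Mef2c and Six4. Those 5 genes were lower in every mutant, so their highest library had to be a control. The 10.4% does not allow for this. The excess of control 3 over the mean of controls 1 and 2 was 1.30-fold for Smyd1, 1.63-fold for Mymk, 1.64-fold for Myog and 2.12-fold for Cdh15. Among the contractile genes of differentiated muscle, 11 of 20 were highest in control 3, 6 in control 2 and 3 in control 1. Control 3 had 25416896 reads, close to the 24962204 of control 2. Control 2, the control that matches the mutants in Ddx3y, had the lowest level among controls for 4 of the 7 tested genes. Set against the 3 mutants on its own, it gave log2 fold changes of -2.39 for Myog, -3.02 for Mymk and -3.05 for Smyd1. This setting was chosen after seeing the data, and a lone control has no spread of its own.

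Ratios of gene pairs within a library show how the steps of the program stood to one another. Each is log2(normalized count + 1) of the first gene minus that of the second, compared by a two-sided exact permutation test over samples, whose smallest p with 3 against 3 is 0.1. Myog over Myod1 was 1.60, 1.39 and 1.13 in controls and 2.02, 1.40 and 0.97 in mutants. The groups overlapped, with a mean difference of 0.09 (exact p = 0.8, adjusted over 4 pairs 0.8), so no shift between the commitment and the differentiation factor was seen beyond the spread. Acta1, the skeletal actin gene of differentiated fibres, over Myog was 0.20, 1.93 and 0.35 in controls and -1.69, -1.78 and -1.52 in mutants. The Acta1 to Myog groups did not overlap, and their means differed by -2.49 (exact p = 0.1, adjusted 0.2). More Myog than Acta1 was left in each mutant. Acta1 had the lowest log2 fold change of all genes tested (-5.26) and passed the filter only through the controls. The ratio thus restates the fold changes of Acta1 and Myog and adds no support of its own. Control 2 had far more Acta1 per Myog than the other controls.

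Myod1 over Six4 was -2.88, -3.15 and -1.74 in controls and -6.41, -4.36 and -4.95 in mutants, without overlap (exact p = 0.1, adjusted 0.2). Myod1 by itself separated the groups and Six4 did not, so this ratio too restates their values. Pax7 over Myod1 overlapped between the groups, with a mean difference of 0.41 (exact p = 0.7, adjusted 0.8). It was -0.22 with a pseudocount of 0.5 in place of 1 and -0.026 without mutant 1, and Pax7 had at most 14 reads in any library, so no direction can be read from it.

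**Figure D3:**
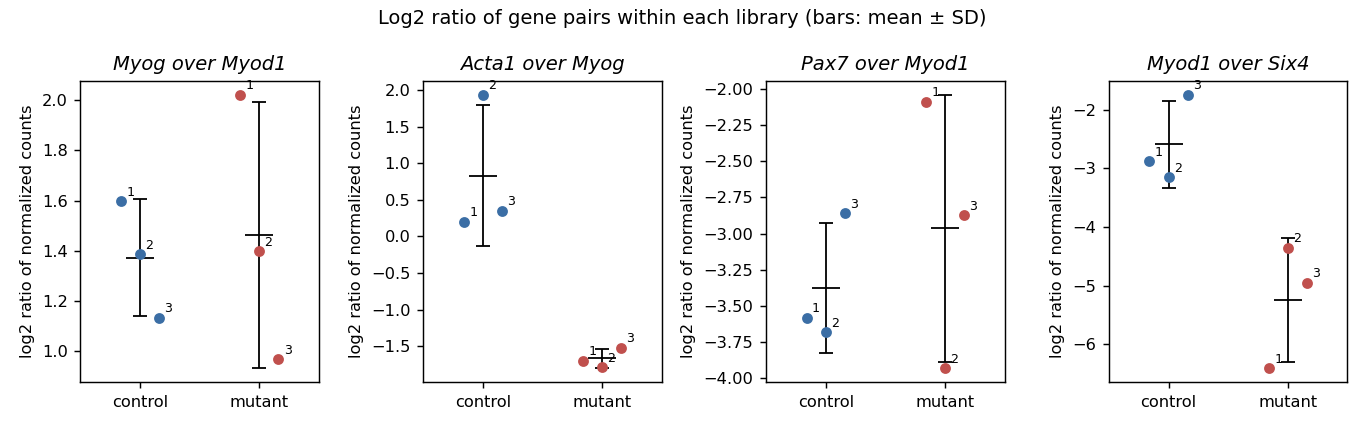
Log2 ratio of normalized counts of 4 gene pairs (vertical axes) in each control and mutant library, with the replicate number at each point and the mean ± SD as bars. Acta1 over Myog and Myod1 over Six4 separate the groups, while Myog over Myod1 and Pax7 over Myod1 overlap.

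Genes around these 10 in the same pathway were taken from lists, and each count can be read against all 16933 genes tested. Of these 0.0886% were called lower and 0.219% higher, 9.63% had an unadjusted p under 0.05, and 8625 had negative and 8308 positive fold changes, with a median of -0.0074. Among the differentiated products, 6 of 19 tested contractile genes fell and none rose, with a median log2 fold change of -2.16. As with Myod1, Mymk and Smyd1, 7 of the 19 passed the filter only through the controls, the called Acta1 and Myh8 among them, so this count and median describe the tested genes and carry no weight for the list. Acta1 fell by 5.26 on the log2 scale, from 9.34 ± 4.64 to 0.208 ± 0.0937 FPKM, and the embryonic myosin gene Myh3 by 4.85 on the log2 scale. The alpha-actinin gene Actn2 and the myosin light chain gene Myl4 fell by 3.27 and 2.44. An exon of Myl4 overlaps an antisense gene, whose reads cannot be told apart from its own. Des (desmin, 42.4 ± 12.5 and 40.9 ± 5.99 FPKM) and Tnnt1 (14.5 ± 3.07 and 12.9 ± 1.77 FPKM) did not pass.

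No gene of the other lists was called by limma. The authors' deposited table called Chrna1 and Cdon lower and Tbx1, Twist2, Tcf4, Itga9 and Kirrel3 higher, against 1.54% and 3.07% of its genes with an adjusted p. These were named after their values were seen. Of 7 tested acetylcholine receptor and neuromuscular junction genes all had negative fold changes (median -0.67), and 3 had an unadjusted p under 0.05 in limma, where all genes gave 9.63%. Chrna1 and Rapsn of these passed the filter only through the controls. The most abundant of them were Colq (2.18 ± 0.382 and 1.97 ± 0.154 FPKM) and Chrnb1 (2.13 ± 0.215 and 1.73 ± 0.304 FPKM). Chrna1, which encodes the receptor's alpha subunit, was at 0.355, 0.209 and 0.529 FPKM in controls and at 0.0104, 0.0511 and 0.0524 FPKM in mutants (limma adjusted p = 0.101), and the authors' deposited table called it (adjusted p = 0.0194).

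Of 16 tested myogenic factors and upstream regulators outside the 10, 10 had negative and 6 positive fold changes (median -0.24), and 6 had an unadjusted p under 0.05, against the same 9.63% of all genes. Of these, 3 passed the filter only through the controls. The most abundant were Tcf21 (125 ± 17.2 and 151 ± 13.45 FPKM), which in the kidney is a stromal and podocyte factor, and Hes6 (35.6 ± 1.62 and 34.2 ± 3.17 FPKM). Of 15 tested MEF2 relatives, E-protein partners and inhibitors, 12 had positive fold changes (median 0.27), as had 8308 of all 16933 genes. Of these 15, 5 had an unadjusted p under 0.05, against 9.63% of all genes. The 15 were led in level by the inhibitor Id3 (277 ± 18.4 and 295 ± 42.1 FPKM) and the partner Tcf3 (195 ± 15.6 and 188 ± 1.25 FPKM). Of 18 tested fusion and adhesion genes, 8 had negative and 10 positive fold changes (median 0.034). Of these 18, 4 had an unadjusted p under 0.05, against 9.63% of all genes. The 18 were led by the integrin gene Itga9 (31.0 ± 11.5 and 39.1 ± 2.41 FPKM) and Jam3 (31.6 ± 4.50 and 31.5 ± 3.88 FPKM). Of 8 Smyd1 partners and chaperones, 2 had an unadjusted p under 0.05, against 9.63% of all genes. The 8 were led by Hsp90aa1 (278 ± 14.1 and 195 ± 27.1 FPKM) and Naca (123 ± 8.21 and 116 ± 10.4 FPKM).

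**Figure D4:**
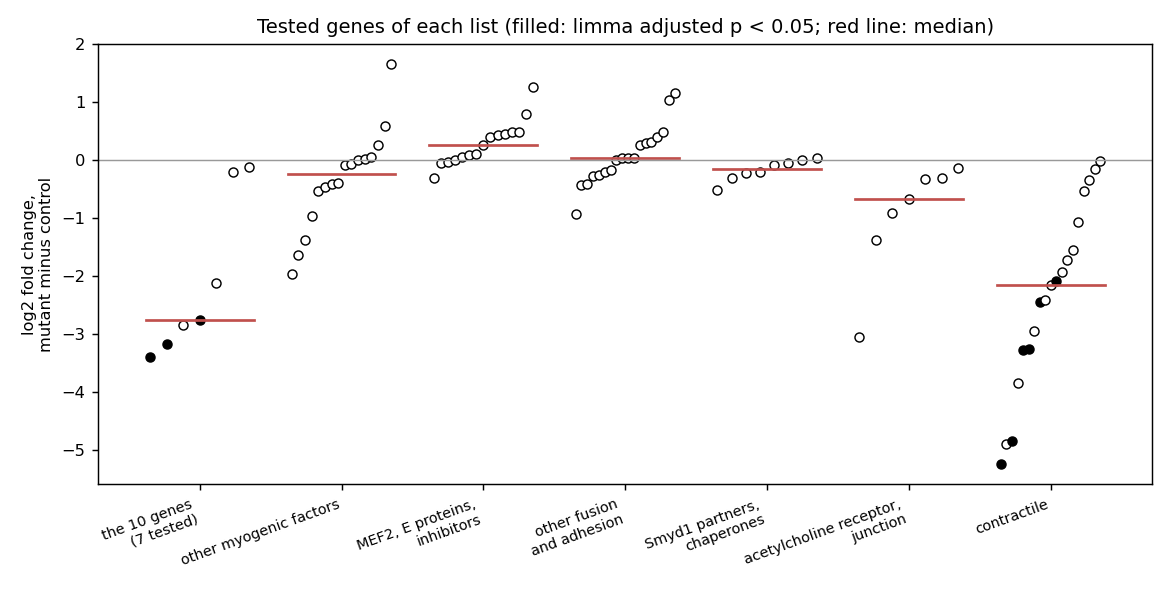
Log2 fold change (mutant minus control, vertical axis) of every tested gene in the 10-gene group and in 6 lists of the same pathway, with filled points for genes called by limma and a red line at each median. The medians are -2.16 for the contractile list and -0.67 for the neuromuscular list. In these 2 lists, 7 and 2 genes passed the filter only through the controls. The medians describe the tested genes and carry no weight for the lists.

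The genes whose levels over the 6 libraries ran most like Myod1, by Pearson correlation of log2(normalized count + 1) among 10637 coding genes, were Tnni1 (r = 0.992), Tnnt2 (0.989), Rpusd4 (0.989), Ccdc86 (0.985) and Neb (0.985). For Myog they were Neb (0.999), Myh3 (0.995), Rragb (0.994), Rpusd4 (0.992) and Mybph (0.991). The 6 libraries fall in 2 groups, so a step between the groups enters every one of these values. Tnni1, Tnnt2, Neb, Myh3 and Mybph encode sarcomere proteins, while Rpusd4 (14.5 ± 0.345 and 13.0 ± 0.398 FPKM), Ccdc86 and Rragb do not and had limma adjusted p of 0.642, 0.401 and 0.401.

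Markers of tissues that lie near the kidney were measured beside the fall of the muscle genes. The skeletal muscle markers, which include Myod1, Myog and Myf5, summed to 25.1 to 42.9 FPKM in controls and 4.18 to 6.33 FPKM in mutants. Cartilage markers summed to 11.6 to 46.3 FPKM in controls and 32.7 to 42.7 in mutants, tendon markers to 23.3 to 37.2 and 25.03 to 30.6, and hindlimb and body wall markers to 63.6 to 93.4 and 61.0 to 97.1. All 3 overlapped between the groups. The last sum was mostly Hoxc10 (68.7 and 67.4 FPKM on average). Hoxd13 of that list rose from 0.54 ± 0.072 to 2.04 ± 0.403 FPKM. The tendon sum was mostly Scx (29.6 and 25.1 FPKM on average), and the cartilage sum was led by Col2a1 (21.6 and 23.3 FPKM). Smooth muscle markers summed to 13.2 to 41.3 FPKM in controls and 35.9 to 80.9 FPKM in mutants. Adrenal cortex markers were low, with sums of 2.01 to 2.32 FPKM in controls and 1.39 to 1.81 FPKM in mutants. Their groups did not overlap, and Mc2r (1.81 and 1.295 FPKM on average) made up most of the sums. No adrenal cortex marker was called by limma. The heart genes Nkx2-5 and Nppa had no row. The other cardiac markers summed to 5.38 to 7.71 FPKM in controls and 5.85 to 9.23 FPKM in mutants, with overlap. Most of that sum was Tnni3 (4.11 and 5.35 FPKM on average). None of the listed markers with a row was at 0 in every library of a group. The part of these other tissues in the levels of the muscle genes was not tested.

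The calls of Myog, Mymk and Smyd1 depended on having all libraries: each was lost in limma without any 1 library other than control 2, with adjusted p of 0.0631 to 0.165. Their log2 fold changes stayed between -3.59 and -2.51 in those fits. The authors' deposited table called 5 of the 7 genes lower (Myod1, Myog, Mymk, Smyd1 and Cdh15), where 1.54% of its genes with an adjusted p were called lower.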

How the data were processed

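The authors' deposited table gave FPKM for each of 6 libraries. No header names that unit, which was taken from the values. Of the authors' tools, STAR 2.6.0c, HTSeq 0.6.1p2, Trim Galore and DESeq2 are named, as is build mm10, per the submitters' processing notes. The strand setting of the counting is not known here. No exon of the 10 genes overlaps an exon of another gene in GENCODE M21 (GRCm38, the same assembly). The deposited table also held a mean normalized signal per gene, a log2 fold change, its standard error and test score, and raw and adjusted p-values, per the file headers.

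Multiplying each FPKM by the mean normalized signal over the mean FPKM of its gene gave normalized counts. All 134364 values were whole multiples of 1 read to within 0.0001 of a read. The table's lowest total over the libraries was 10 reads. Groups were compared on log2(normalized count + 1) in limma (3.58.1, under R 4.3.3) with a mean-variance trend and no covariates, over 16933 genes with at least 10 normalized counts in 3 libraries, and Benjamini-Hochberg adjusted p under 0.05 was a call. This scale understates changes of low genes. Nothing states that each library came from 1 embryo, so p-values measure the spread between these libraries. Read intervals are exact (95%) and cover counting error only. On simulated counts for this comparison (16933 genes), limma recovered 51.0% of the 2-fold and 91.0% of the 4-fold changes, with 6 false among 148 calls. Changes were planted only in genes above a minimum mean count, and spread was averaged over genes of like level. These rates therefore do not give the sensitivity for low genes or for genes with wide spread among the controls.

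The 10 genes and all lists were chosen with earlier results of these data known. Named from each list were up to 4 called genes with the smallest p and up to 2 uncalled genes with the highest mean FPKM, with Myf6, Mymx and Acta1 always named and exceptions marked. A further gene that the rule names is not reported here. Tmem8c, an older name of Mymk, was dropped from its list. Alternatives covered the pseudocount, filter, scaling, model, replicate block and single libraries.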

Additional observations from a re-analysis of the deposited data

How the results depend on the processing

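The log2 fold changes of Myod1, Myog, Mymk, Smyd1, Cdh15 and Six4 were negative under every alternative run. That of Mef2c was -0.23 to 0.078 when single libraries were left out and 0.075 with library weights. Of the 10 genes, 3 were called in limma. The count was 1 with a minimum of 50 normalized counts (5 genes tested), 2 without the intensity trend, 5 with library weights and 5 in the authors' deposited table. The trend's removal ended the call of Myog (limma adjusted p = 0.0716), and the higher minimum that of Smyd1 (0.0516) and left Mymk untested. The count was 0 with the replicate block, 0 to 3 without single libraries, and 0 with control 2 alone against the 3 mutants, a setting chosen after seeing the data in which the lone control is assumed to vary like the mutants. In each of these limma fits without a call, 5 genes had an unadjusted p under 0.05, as had 6.05% to 25.5% of all genes. Over all genes the 52 calls became 32 without the intensity trend, 380 with library weights, 17 with the replicate block, 9 to 158 without single libraries, 679 with control 2 alone and 732 in the authors' deposited table. Of the other listed genes 6 were called, against 19 with library weights, 3 with the replicate block, 2 to 14 without single libraries, 11 with control 2 alone and 18 in the authors' deposited table. The cause of these shifts was not tested. The difference in Pax7 over Myod1 was 1.32 with a pseudocount of 5, 1.92 on FPKM with 0.1, and -0.22 with 0.5.

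The sample numbers were not taken as pairs in the main fit. Deviations of same-numbered libraries correlated at 0.00081, -0.098 and 0.309, the last being the highest of all pairings. Mutant 1 correlated best with control 2 (0.234). Deviations from a shared group mean are not independent, so these values cannot settle the pairing. The replicate block above is the fit that uses the numbers as pairs. One read was worth 0.498 normalized counts in mutant 3 and 1.78 in mutant 2, so that 0 reads of a gene in mutant 2 are less informative than in the other libraries.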

Other observations

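Twist2, Kirrel3 and Cdon from the lists were called in the authors' deposited table and not by limma over all genes. They were named after their values were seen. Twist2, a basic helix-loop-helix factor of mesenchyme that can restrain myogenic factors, was at 9.34, 5.77 and 10.1 FPKM in controls and at 19.5, 19.9 and 19.6 FPKM in mutants (limma adjusted p = 0.0588). The authors' deposited table put the log2 difference of Twist2 at 1.41 (adjusted p = 5.53e-07). Twist2 exons overlap an antisense gene, from which its reads cannot be told apart. Kirrel3, an immunoglobulin-type adhesion gene, was at 1.77 ± 0.442 and 3.91 ± 0.352 FPKM without overlap (limma adjusted p = 0.0936). The authors' deposited table called Kirrel3 higher (adjusted p = 0.000133). Cdon, a cell surface protein of myoblasts that also binds Hedgehog ligands, was lower, at 7.88 ± 2.23 and 4.14 ± 1.25 FPKM. The Cdon groups overlapped (limma adjusted p = 0.309), and the authors' deposited table called it (adjusted p = 0.00587).

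In all, 5 listed genes outside the 10 had a row but too few reads to be tested. Musk, the kinase that organises the neuromuscular junction, had 7, 7 and 11 reads in controls and 0, 0 and 1 in mutants. Cav3, the muscle caveolin gene, had 8, 3 and 7 reads in controls and 1, 0 and 1 in mutants. Ckm, the muscle creatine kinase gene, had 2, 22 and 3 reads in controls, most of them in control 2, and 4, 1 and 0 in mutants. The groups overlapped for Ckm, for Lbx1, a factor of migrating muscle precursors (3, 3 and 11 against 5, 2 and 6 reads), and for Chrne, the adult receptor subunit gene (2, 1 and 4 against 4, 1 and 2 reads). Among the tested genes, Unc45b, a myosin chaperone of striated muscle, was at 0.808 ± 0.0453 and 0.836 ± 0.105 FPKM, with overlapping groups (limma adjusted p = 0.954).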
